A study of Rattus norvegicus with 12 samples.

Results

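Bicarbonate transport and the reversible hydration of carbon dioxide were followed at the transcript level in rat choroid plexus, the epithelial tissue in the brain ventricles that secretes most of the cerebrospinal fluid (CSF). The 7 genes described are the transporters SLC4A2, SLC4A5, SLC4A7 and SLC4A10 and the carbonic anhydrases CA2, CA12 and CA14. They were taken as the rows whose Ensembl identifier the supplementary tables of the study pair with these symbols, 7 of 7 requested and 7 of 32883 genes in the files. CA2 is written CAR2 there.

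RNA was sequenced from whole choroid plexus of 12 male Sprague-Dawley rats aged 9 weeks and kept on a light cycle with equal light and dark. In the light phase, 6 rats were sampled at zeitgeber time (ZT) 8, counted in hours from lights on, and in the dark phase 6 others were sampled at ZT20. All animals were untreated apart from the xylazine and ketamine anesthesia that both groups received, and dark-phase tissue was taken in darkness with occasional red light. The comparison asks which transport genes differ between the phases, against the background of a day-night rhythm in CSF secretion.

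Secretion by this epithelium depends on bicarbonate. Carbonic anhydrases turn carbon dioxide and water into bicarbonate and protons and back, and transporters of the SLC4 family carry bicarbonate across the basolateral membrane, which faces the blood, and the luminal membrane, which faces the CSF. SLC4A2 (AE2) exchanges chloride for bicarbonate, SLC4A10 (NCBE, also NBCn2) and SLC4A7 (NBCn1) import bicarbonate together with sodium, and SLC4A5 (NBCe2) is an electrogenic sodium-bicarbonate cotransporter of the luminal membrane. CA2 is a cytosolic enzyme, whereas CA12 and CA14 are anchored in the plasma membrane with the active site outside the cell. Inhibitors of carbonic anhydrase lower CSF secretion.

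Expression is given in TPM (transcript abundance as a share of the library), which is scaled to transcript length and to the library, so that levels of different genes can be set side by side. CA2 had the highest level of the 7 genes, 1651 TPM over all libraries, and ranked 38 of all genes in the files. SLC4A5 followed with 587 TPM and exceeded SLC4A2 (484 TPM) and CA12 (483 TPM) in 12 of 12 libraries. CA14 (309 TPM) and SLC4A10 (302 TPM) came next and could not be ordered, because CA14 was the higher in 3 of 6 light-phase and 3 of 6 dark-phase libraries. SLC4A7 was the lowest at 7.93 TPM, rank 7775. Apart from the pairs SLC4A2 with CA12 in the light phase and CA14 with SLC4A10 in both phases, neighbours in this order had ranges over the 6 libraries that did not overlap in either phase.

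**Figure D1:**
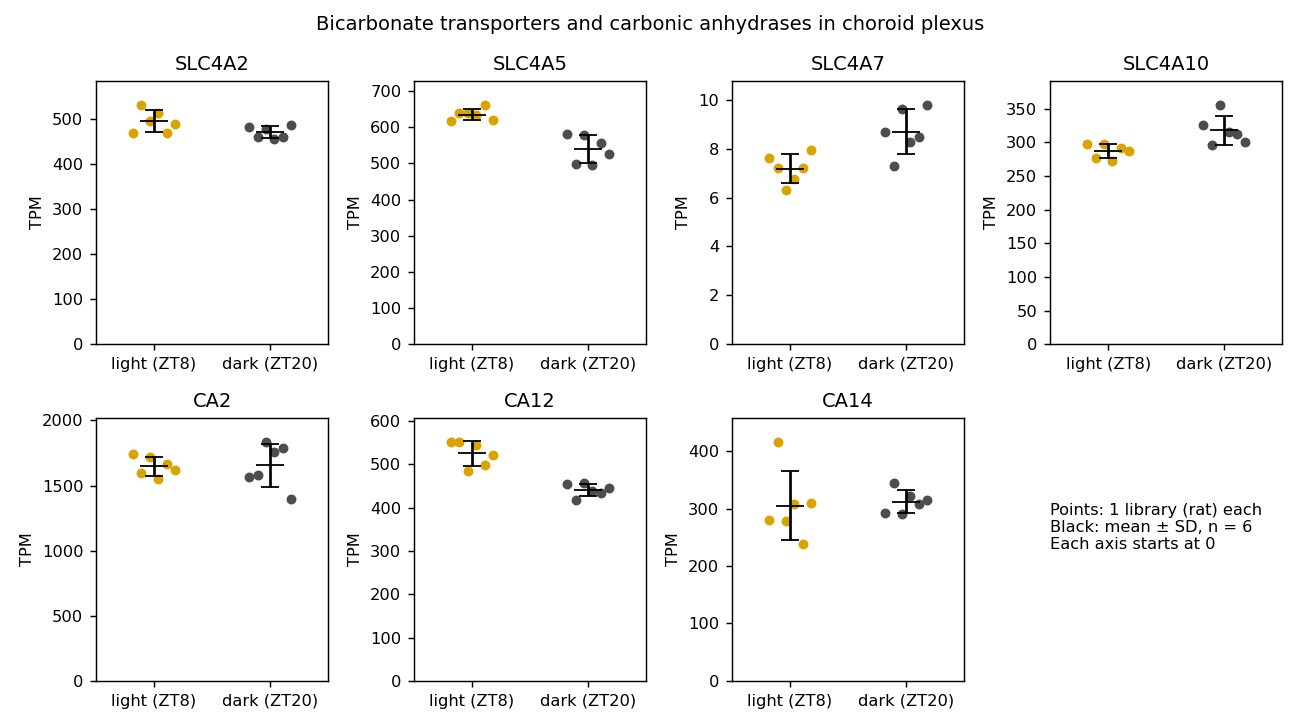
Level of each of the 7 genes in TPM (vertical axes, starting at 0) in the light phase (ZT8) and the dark phase (ZT20). Each point is 1 library and black bars give mean ± SD of 6. In SLC4A5 and CA12 every light-phase point lies above every dark-phase point, and the highest CA14 point, 417 TPM, belongs to light-phase replicate 2.

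Differential expression was tested with limma on log2 of scaled TPM plus 0.5, in 1 fit over the 12513 genes whose mean reached 1 TPM and with Benjamini-Hochberg adjustment (false discovery rate, FDR) over these genes. All 7 genes passed this filter. Of the genes tested, 17.7% had an FDR below 0.05, with 9.64% up-regulated and 8.08% down-regulated at ZT20. At this limit 3 of the 7 genes were called, SLC4A5 and CA12 as higher in the light phase and SLC4A7 as higher in the dark phase, and 4 were not. The 7 genes were chosen with earlier results of these data known, so nothing is read from their share of calls. Their median size of log2 fold change was 0.13, against 0.12 over all genes tested.

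Because the tissue is a mixture of cells, fewer cells of a type and less RNA per cell cannot be told apart. In the same fit, 4 of 11 epithelial markers were called as up-regulated at ZT20 and 1 as down-regulated. The endothelial marker FLT1, 1 of 2 paired with an identifier among 6 listed, was up-regulated at ZT20 like SLC4A7. Its log2 fold change was 0.35 (limma FDR = 0.000169), without overlap of the phases, at a mean of 14.6 TPM. At this level symbols came in part from tables of genes that the study had called. PLVAP was not called. Nor were the paired markers of stroma (2 of 7), macrophages (2 of 8), red blood cells (4 of 8), ependyma (1 of 4) and astrocytes (1 of 4). The part of cell composition in the differences of SLC4A5, CA12 and SLC4A7 was not tested. Libraries also differed in the sum of FPKM divided by the sum of TPM, a number set by the length of the transcripts that make up a library. This ratio was 0.953 to 0.987 at ZT8 and 0.934 to 0.960 at ZT20. With this ratio as a covariate, 0 of the 7 genes had an FDR below 0.05, and 346 in place of 2217 genes had one over all genes. The ratio moved with the phase, and the standard errors of all 7 genes were larger in this fit.

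SLC4A5, the luminal electrogenic cotransporter, was lower in the dark phase. Light-phase libraries ran from 618 to 662 TPM with a median of 635, and dark-phase libraries from 495 to 580 TPM with a median of 542. Every light-phase library thus lay above every dark-phase library, which was the case, in either direction, for 8.26% of all genes tested. The mean fell by 15.0%, from 635 ± 15.9 to 540 ± 38.4 TPM (SD, n = 6 each). The log2 fold change, dark against light, was -0.25 (standard error 0.047, limma FDR = 0.00284), and its 95% interval ran from -21.9% to -9.73%. The libraries of the dark phase were spread more widely, with a coefficient of variation of 7.11% against 2.51% in the light phase. In the fit that adjusted for the FPKM to TPM ratio the log2 fold change was -0.23 (standard error 0.076, limma FDR = 0.132).

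The region around the RefSeq start site of SLC4A5 is shown, together with those of CA12 and SLC4A10. SLC4A5 and CA12 were called, whereas SLC4A10 was not and is shown because of its ratio to SLC4A5, given below. Each window holds 250 bases before and 50 after the start, read 5′ to 3′ on the strand of the gene. RefSeq windows of the assembly GRCr8 were matched by symbol for 5 of the 7 genes, without SLC4A7 and CA2. GRCr8 is a newer build than the Rnor_6.0 used for the expression values, and which start sites the choroid plexus uses was not measured. Capitals mark matches to 4 sequences bound by factors of the circadian clock, searched on both strands, namely the E-box CACGTG, the D-box as TTATGTAA or TTACGTAA, and the core of the ROR element, AGGTCA.
SLC4A5, chr4:117283044-117283343, + strand: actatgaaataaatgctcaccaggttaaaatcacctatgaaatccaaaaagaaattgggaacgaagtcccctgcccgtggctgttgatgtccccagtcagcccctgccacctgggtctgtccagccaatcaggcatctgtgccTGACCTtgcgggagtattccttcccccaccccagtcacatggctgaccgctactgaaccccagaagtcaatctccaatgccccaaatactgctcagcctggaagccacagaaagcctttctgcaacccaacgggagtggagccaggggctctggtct
CA12, chr8:76169565-76169864, + strand: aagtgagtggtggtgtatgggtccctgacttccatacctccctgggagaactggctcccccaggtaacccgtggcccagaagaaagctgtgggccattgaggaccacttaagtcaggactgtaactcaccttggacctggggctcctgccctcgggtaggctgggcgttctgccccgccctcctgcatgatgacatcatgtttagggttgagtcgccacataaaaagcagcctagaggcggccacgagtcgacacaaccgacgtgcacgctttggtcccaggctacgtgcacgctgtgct
SLC4A10, chr3:67073653-67073952, + strand: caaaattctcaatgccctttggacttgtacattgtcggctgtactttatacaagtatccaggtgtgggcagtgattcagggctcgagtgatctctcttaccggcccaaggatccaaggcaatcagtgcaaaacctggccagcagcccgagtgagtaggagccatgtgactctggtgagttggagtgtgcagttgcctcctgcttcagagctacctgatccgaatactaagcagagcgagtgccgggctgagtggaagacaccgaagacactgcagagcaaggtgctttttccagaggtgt
The only match in these windows was AGGTCA on the opposite strand of SLC4A5, at bases 144 to 149 of the window. Of 33469 RefSeq windows of the same length, 16.2% hold AGGTCA, 6.42% hold CACGTG, 0.893% hold TTATGTAA and 0.12% hold TTACGTAA. The windows of SLC4A2 and CA14 hold none of the 4 either. A match is a string of letters and not a measured binding site. The SLC4A5 window has 54.0% G and C and 5 CG dinucleotides, that of CA12 59.0% and 13, and that of SLC4A10 52.3% and 8, against medians of 51.7% and 7 over all windows. SLC4A2 stands apart with 75% G and C and 39 CG dinucleotides.

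SLC4A10, a basolateral sodium-coupled importer of bicarbonate, had higher values at ZT20 than at ZT8, but it did not pass the limit after adjustment. Light-phase libraries ran from 272 to 297 TPM (median 289) and dark-phase libraries from 296 to 355 TPM (median 314). In 5 of 6 dark-phase libraries SLC4A10 exceeded every light-phase library, and dark-phase replicate 2, at 296 TPM, lay within the light-phase range. The means were 287 ± 10.5 and 318 ± 21.3 TPM (SD, n = 6 each), a difference of 10.8%. Its log2 fold change was 0.13 (standard error 0.047, limma FDR = 0.0738), with a 95% interval, not adjusted, from 1.84% to 17.7%. When TPM was used as deposited, without scaling of the libraries, the FDR was 0.0416 at a log2 fold change of 0.15. This was 1 of 12 alternative settings and the only one with a call (limma FDR from 0.0416 to 0.256). With 1 library left out in turn, SLC4A10 was called in 0 of 12 fits (limma FDR from 0.0581 to 0.139).

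SLC4A7, the other sodium-coupled importer, was expressed at a few TPM. Its libraries ran from 6.32 to 7.94 TPM at ZT8 (median 7.22) and from 7.28 to 9.79 TPM at ZT20 (median 8.58), and the phases overlapped through 1 dark-phase library. The mean was 21.1% higher in the dark phase, 8.69 ± 0.924 against 7.18 ± 0.586 TPM (SD, n = 6 each), and its log2 fold change was 0.24 (standard error 0.073, limma FDR = 0.0373). Its 95% interval ran from 5.62% to 32.5%. This call lay near the limit. With 1 of the 12 libraries left out in turn it held in 2 of 12 fits, without dark-phase replicate 2 and without light-phase replicate 6. The FDR ranged from 0.0161 to 0.0839 over the 12 fits. The log2 fold change itself stayed between 0.21 and 0.29 in these fits.

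SLC4A2, the anion exchanger, had 471 to 532 TPM at ZT8 (median 494) and 457 to 488 TPM at ZT20 (median 470). Means were 496 ± 24.5 and 472 ± 13.7 TPM (SD, n = 6 each). The phases overlapped, with 3 of 6 dark-phase libraries below all light-phase libraries. The log2 fold change was -0.09 with a standard error of 0.041 and did not pass the limit (limma FDR = 0.167), and its 95% interval ran from -11.6% to 0.237%.

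**Figure D2:**
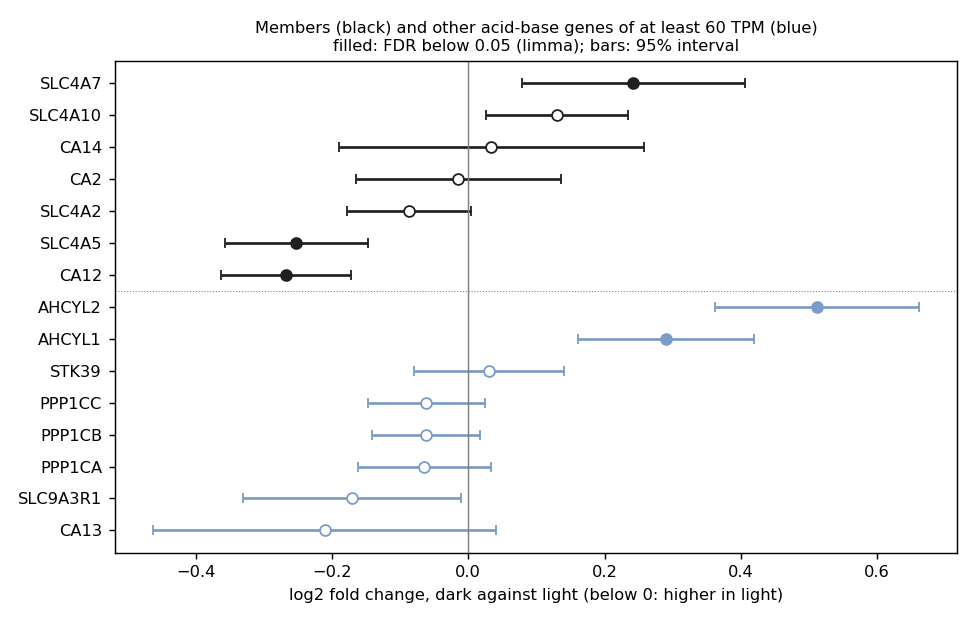
Log2 fold change, dark against light (horizontal axis, below 0 higher in the light phase), with 95% intervals from limma, for the 7 genes (black) and for 8 further acid-base genes with a mean of 60 TPM or more (blue). Filled points have an FDR below 0.05. SLC4A5 and CA12 lie at -0.25 and -0.27, SLC4A7 at 0.24, and CA2 at -0.01, where the sign turns to positive with TPM as deposited.

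Ratios between transporters within a library do not depend on how the libraries are scaled, and they are given as a description without a test. For each SLC4A5 transcript there were 0.430 to 0.481 SLC4A10 transcripts at ZT8 (median 0.452) and 0.562 to 0.637 at ZT20 (median 0.583). The phases overlapped in SLC4A10 alone but not in SLC4A5, the denominator, whose fall by itself raises such ratios. The phases did not overlap in the SLC4A10 to SLC4A5 ratio, and the mean of this ratio was 30.5% higher in the dark phase. The ratio of SLC4A7 to SLC4A5 did not overlap either, at 0.00989 to 0.0128 at ZT8 and 0.0146 to 0.0186 at ZT20. In contrast, the ratio of SLC4A2 to SLC4A5 ran from 0.711 to 0.834 and from 0.827 to 0.926, so that the phases met at their edges. The sum of the 4 transporters was 1425 ± 22.2 TPM at ZT8 and 1338 ± 64.6 TPM at ZT20 (SD, n = 6 each), and in both phases SLC4A5 was its largest part.

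**Figure D3:**
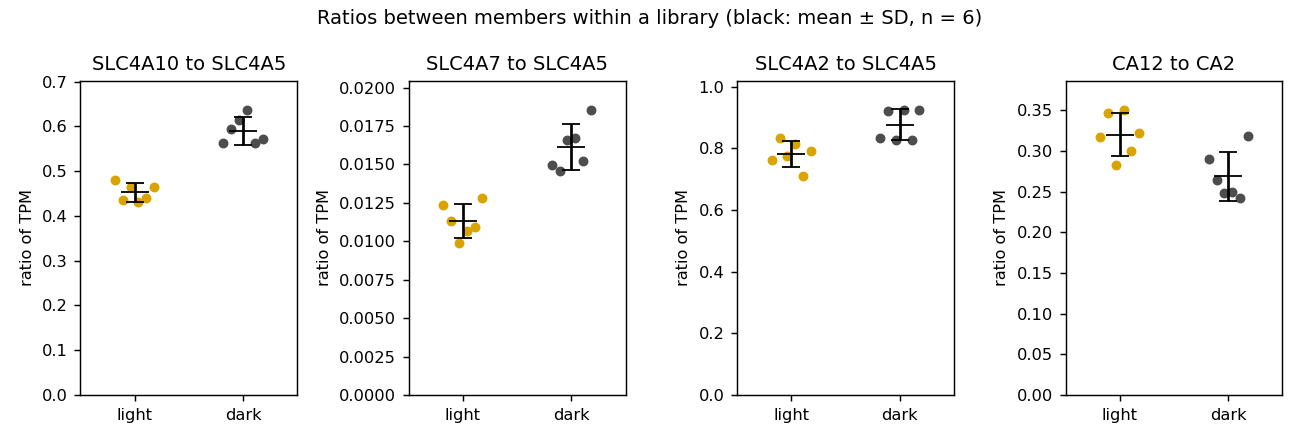
Ratio of TPM between 2 genes of the same library (vertical axes, starting at 0) in the light and the dark phase, 1 point per library, with mean ± SD of 6 in black. The SLC4A10 to SLC4A5 ratio has a median of 0.452 at ZT8 and 0.583 at ZT20 with no overlap, and the CA12 to CA2 ratio has medians of 0.320 and 0.257 with overlap.

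CA12, a membrane-anchored carbonic anhydrase, was lower in the dark phase. Light-phase libraries ran from 485 to 552 TPM (median 533) and dark-phase libraries from 417 to 456 TPM (median 442), with no overlap. The mean fell by 16.1% in the dark phase, from 526 ± 28.7 to 441 ± 14.9 TPM (SD, n = 6 each). The log2 fold change was -0.27 (standard error 0.043, limma FDR = 0.00114), with a 95% interval from -22.3% to -11.2%. In the fit that adjusted for the FPKM to TPM ratio it was -0.25 (standard error 0.069, limma FDR = 0.0790).

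The fall in CA12 changed its place relative to SLC4A2. In the light phase CA12 was above SLC4A2 in 5 of 6 libraries, with light-phase replicate 3 as the exception, at 485 TPM for CA12 and 496 TPM for SLC4A2. In the dark phase CA12 was below SLC4A2 in 6 of 6 libraries, and the ranges of both genes did not overlap. The difference in phase effect between the genes was not tested.

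**Figure D4:**
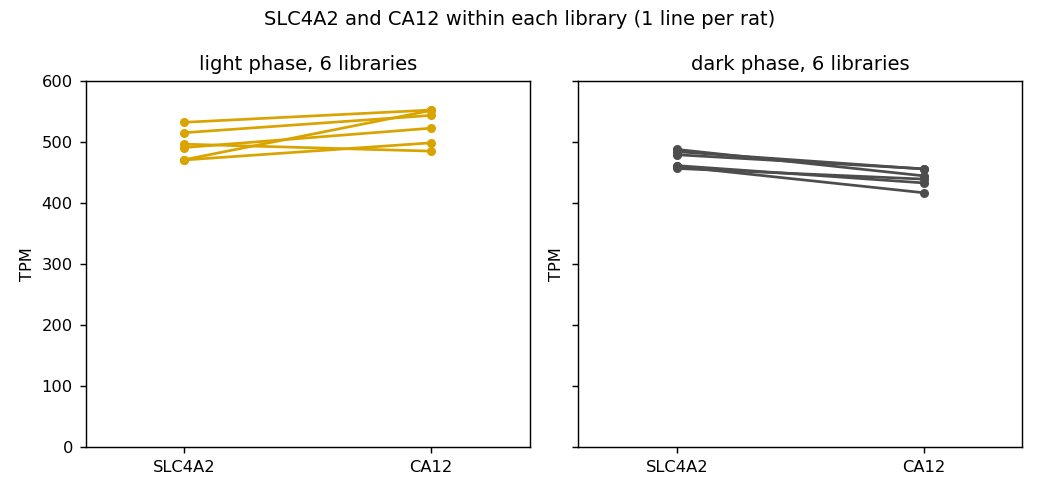
SLC4A2 and CA12 in TPM (vertical axis, starting at 0), with a line joining both genes of each library, in the light phase (left) and the dark phase (right). CA12 is the higher in 5 of 6 light-phase libraries and the lower in 6 of 6 dark-phase libraries.

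CA2, the cytosolic enzyme, had 1549 to 1740 TPM at ZT8 (median 1643) and 1398 to 1837 TPM at ZT20 (median 1669). The dark-phase libraries thus enclosed the light-phase range. Means were 1648 ± 73.3 and 1655 ± 168 TPM (SD, n = 6 each), and the log2 fold change was -0.01 with a standard error of 0.067 (limma FDR = 0.910). Its value turned to 0.00046 with TPM as deposited, so that no direction is given. The 95% interval ran from -10.8% to 9.87%. CA2 is also made by red blood cells. In the library with the most haemoglobin transcripts CA2 was 1596 TPM, within the range of the other libraries. The ratio of CA12 to CA2 ran from 0.282 to 0.351 at ZT8 and from 0.242 to 0.318 at ZT20.

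CA14, the other membrane-anchored enzyme, varied most among the light-phase libraries of the 7 genes, with a coefficient of variation of 19.8% there against 6.45% at ZT20. Light-phase libraries ran from 239 to 417 TPM (median 294), enclosing all 6 dark-phase libraries at 290 to 344 TPM (median 311). The log2 fold change was 0.03 (standard error 0.10, limma FDR = 0.857). It had a 95% interval from -12.3% to 19.5%, and it lay between -0.03 and 0.11 with 1 library left out in turn. The value of 417 TPM belonged to light-phase replicate 2, in which the 4 haemoglobin genes summed to 29697 TPM, against 4319 to 11183 TPM in the other 11 libraries. The endothelial markers PLVAP and FLT1 summed to 139 TPM there and to 71.4 to 113 TPM elsewhere, and the 11 epithelial markers to 264793 TPM against 298765 to 322627 TPM. That lower sum was carried by TTR, at 253710 TPM, since the other 10 epithelial markers summed to 11083 TPM there and to 10984 to 12906 TPM elsewhere. Without that library the log2 fold change of CA14 was 0.11 (limma FDR = 0.374), and with the log2 haemoglobin level as a covariate, added after the data were seen, it was 0.13 (limma FDR = 0.344). The sum of the 3 enzymes was 2479 ± 75.8 TPM at ZT8 and 2407 ± 163 TPM at ZT20 (SD, n = 6 each).

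**Figure D5:**
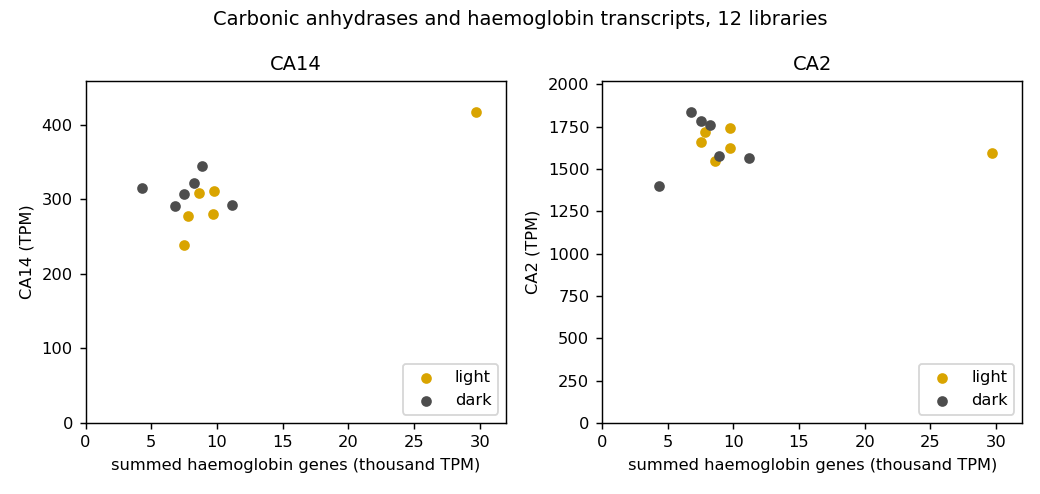
CA14 (left) and CA2 (right) in TPM (vertical axes, starting at 0) against the summed haemoglobin genes of the same library in TPM, with the axis in kilo-TPM, with light-phase libraries in yellow and dark-phase libraries in grey. The library with 29697 TPM of haemoglobin, light-phase replicate 2, has the highest CA14, 417 TPM, and a CA2 of 1596 TPM within the range of the others.

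Other genes of acid-base transport were taken from 5 fixed lists with 56 symbols, namely other SLC4 genes, other carbonic anhydrases, SLC26 anion exchangers, sodium-proton exchangers with their scaffolds, and regulators of bicarbonate transport. Of these, 13 could be paired with an identifier and the other 43 were not analysed here. Pairing was close to complete for genes whose mean reached 60 TPM, of which 1682 of 1703 had a symbol, and no other SLC4 gene appeared among these 1682. At this level 8 genes of the lists were measured, of which 2 were up-regulated and 0 down-regulated at ZT20, while 22.5% of all genes at this level were called. Their median log2 fold change was -0.06, against -0.02 over the 1703 genes. CA13, a further cytosolic carbonic anhydrase, was not called at 100 ± 17.1 TPM at ZT8 and 87.1 ± 12.4 TPM at ZT20 (SD, n = 6 each, limma FDR = 0.230). SLC9A3R1, a scaffold that binds sodium-proton exchangers, was not called either (95.8 ± 8.31 and 85.8 ± 5.88 TPM, SD, n = 6 each, limma FDR = 0.124).

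The called genes at this level were AHCYL1 and AHCYL2, which encode IRBIT and its long form, proteins that bind and activate sodium-bicarbonate cotransporters. AHCYL1 rose from 152 ± 9.88 to 188 ± 14.5 TPM and AHCYL2 from 160 ± 7.25 to 231 ± 23.9 TPM (SD, n = 6 each), with log2 fold changes of 0.29 and 0.51 (limma FDR = 0.00449 and 0.000269) and no overlap of the phases. Adjusted for the FPKM to TPM ratio, AHCYL2 stayed called (limma FDR = 0.0272) and AHCYL1 did not (limma FDR = 0.148). STK39 (SPAK), a kinase that acts on ion transporters and the most abundant gene of these lists, had 285 ± 12.5 and 294 ± 21.3 TPM (SD, n = 6 each) and was not called (limma FDR = 0.723). Below 60 TPM, symbols came in part from tables of genes that the study had called, so that no share is read. Among the 5 genes paired there, WNK1, a kinase upstream of SPAK, was higher in the dark phase at 22.9 ± 0.954 against 17.2 ± 1.04 TPM (SD, n = 6 each, limma FDR = 1.9e-05). SLC26A2, a sulfate transporter, was lower there at 7.49 ± 1.46 against 9.38 ± 0.687 TPM (SD, n = 6 each, limma FDR = 0.0387), a call that held in 4 of 12 fits with 1 library left out (limma FDR from 0.0154 to 0.0784).

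For each of the 7 genes the genes of most similar pattern were ranked by Pearson's r of log2 scaled TPM over the 12 libraries. The 3071 genes with a symbol and a mean of 10 TPM or more were compared, and as the 3 highest of so many, the values are a description without a test. Symbols below 60 TPM came in part from tables of genes that the study had called, so closer genes without a symbol may be missing. A shared difference between the phases raises such an r, so the r of the deviations from the phase means is given beside it. SLC4A5 was closest to SIDT2 (r = 0.962, 0.837 within phases), a lysosomal membrane protein, then to SPAG8 (0.958, 0.812) and to the water channel AQP1 (0.957, 0.843). AQP1 is itself a protein of the luminal membrane and fell from 604 ± 41.3 to 472 ± 48.2 TPM at ZT20 (SD, n = 6 each).

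SLC4A10 was closest to the semaphorin receptor PLXNB1 (r = 0.950, 0.912 within phases), followed by FKBP14 (0.940, 0.890) and CCDC127 (0.939, 0.904). SLC4A7 was closest to TCAF1 (0.922, 0.864), to the clathrin heavy chain gene CLTC (0.902, 0.780) and to PJA2 (0.890, 0.766). For SLC4A2 no r reached the level of the other transporters, the 3 highest being 0.849 for RGD1561590 (0.753 within phases), 0.848 for TM2D2 (0.790) and 0.845 for RAB4B (0.747). By the ranks of the libraries (Spearman), likeness to these 3 genes was lower, at 0.573, 0.727 and 0.636. Thus 0 of the 7 genes appeared among the 3 genes closest to another of them. SLC4A7 could not appear, since its mean of 7.93 TPM lay below the limit for genes compared.

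Among the enzymes, CA12 was closest to SGCB (r = 0.936, 0.663 within phases), to CFAP52, a gene of motile cilia (0.932, 0.621), and to the proteasome gene PSMD3 (0.930, 0.579), so that its likeness lay more in the phase difference than for SLC4A5. CA2 was closest to ZCCHC18 (0.878, 0.886), with PITPNA (0.765, 0.837) and PIP5K1B (0.711, 0.710) well below. CA14 was closest to NT5DC2 (0.860, 0.861), LOC687679 (0.852, 0.873) and CAPZB (0.841, 0.907). In all 3 genes light-phase replicate 2 was again the highest library. It had 426 TPM of NT5DC2 against at most 353 TPM in the others, 100.7 against 93.55 TPM of LOC687679, and 87.77 against 83.85 TPM of CAPZB.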

How the data were processed

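Paired-end RNA sequencing was done by the study on choroid plexus of 12 rats, 1 library per rat, so that p-values measure the spread between rats at 1 time point per phase. Per the study's methods, the authors aligned reads with STAR 2.7.9a to Rnor_6.0 and estimated gene levels with RSEM 1.3.3. The deposited values are TPM, and FPKM beside it, per Ensembl gene. Within a library the deposited FPKM is a constant times TPM. The authors tested gene counts with DESeq2, and no counts were analysed here.

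TPM was divided by a factor per library (trimmed mean of log ratios, 30% of ratios and 5% of levels trimmed at each end), and log2(value + 0.5) was fitted with limma 3.58.1 (R 4.3.3) with a trended prior, over 12513 genes whose mean reached 1 TPM. Fold changes on this scale understate those of low genes. Intervals are t intervals on limma's standard errors. Absolute depth is unknown. The steps of low FPKM values gave relative depths of 0.889 to 1.37 in the light and 0.878 to 1.09 in the dark phase, against a mean of 1. No libraries were identical. Symbols came from the study's supplementary tables, held in part, for 3700 genes. In simulated data with 12513 genes, 100 genes were changed by 0.3 and 100 by 1 on the log2 scale. The fit recovered 37 and 86 of them and called 8 unchanged genes. Far fewer genes were changed there than the 17.7% called in the real data, so these shares do not measure the power of the main fit. Named in the text were the 7 genes and, for each of the 7, the 3 genes most like it. Of the 5 lists, the called genes were named and, at 60 TPM or more, the most abundant gene of each list. Cell type markers are named beside results where they were called or stood apart, and 1 further marker list is not reported. Members and lists were chosen with earlier results of these data known.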

Additional observations from a re-analysis of the deposited data

Results flagged for a closer look

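Among 68 groups of 6 libraries examined (each of the 7 genes and the paired list genes, the summed marker lists, the ratios between genes and the ratio of FPKM to TPM, in each phase), 6 held a library whose gap to the others exceeded Dixon's 95% critical value, and about 3.4 are expected by chance. The TPM of the 7 bicarbonate genes gave none of them. Light-phase replicate 2 gave 3 flags, with the lowest epithelial marker sum (264793 TPM, others 311426 to 315274), the highest haemoglobin sum (29697 TPM, others 7506 to 9765) and the highest sum of the endothelial markers (139 TPM, others 71.4 to 84.4). The epithelial sum is nearly all TTR, and the other 10 markers summed to 11083 TPM in this library, within the range of the others. It also had the highest CA14. Dark-phase replicate 5 had the highest endothelial sum of its phase at 113 TPM (others 72.1 to 82.8). Light-phase replicate 1 had the highest ALDOC of its phase, an astrocyte marker, at 107 TPM (others 36.0 to 47.3). Its CA2, 1740 TPM, was the highest of its phase. Dark-phase replicate 6, which had the lowest CA2 at 1398 TPM, had an ALDOC of 81.3 TPM (others 44.6 to 49.2).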

How the results depend on the processing

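SLC4A5 and CA12 stayed called in 12 of 12 fits without 1 library and in 11 of 12 other alternatives, and SLC4A7 in 2 of 12 and 8 of 12. The exception for the former was the fit that adds the ratio of FPKM to TPM, with 346 genes called (225 higher in the dark and 121 in the light phase), 0 of the 7 genes, 1 list gene of 60 TPM or more, and log2 fold changes of -0.23 for SLC4A5, -0.25 for CA12, 0.19 for SLC4A7, -0.032 for CA14 and 0.11 for CA2, the last 2 with the sign reversed. The covariate takes 1 degree of freedom and moves with the phase, and the cause was not tested. SLC4A7, at 0.24, also lost its call with no filter (limma FDR = 0.0600) and with a replicate block (limma FDR = 0.0592), and at 0.21 with the haemoglobin level as a covariate (limma FDR = 0.101), chosen after the data were seen. TPM as deposited gave SLC4A10 0.15 with its only call among all these settings, and CA2 0.00046 with the sign reversed. The exact permutation test on that scale, not adjusted, gave 0.15 for SLC4A10 (p = 0.00649) and 0.0056 for CA2 (p = 0.933). STK39 turned to -0.0019 with the haemoglobin covariate.

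Without 1 library in turn, 1697 to 2239 genes were called (930 to 1172 higher in the dark and 734 to 1067 in the light phase), 2 to 3 of the 7 genes, and 2 to 3 list genes of 60 TPM or more. Log2 fold changes then ranged from -0.27 to -0.23 for SLC4A5, -0.29 to -0.24 for CA12, 0.21 to 0.29 for SLC4A7, 0.10 to 0.15 for SLC4A10, -0.11 to -0.06 for SLC4A2, -0.046 to 0.036 for CA2 and -0.032 to 0.11 for CA14. CA2 changed sign without dark-phase replicate 1 or 6 and CA14 without light-phase replicate 5. SLC26A2 kept its call in 4 of 12 such fits.

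Libraries with the same replicate number share only a number, since their deviations correlated at -0.11 to 0.047 and 0 of 12 correlated best with their own number. The replicate block called 1599 genes and kept the calls of SLC4A5 and CA12. No count test was possible on TPM.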

Other observations

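Of the 11 epithelial markers, 4 were higher in every dark-phase library than in any light-phase library, and AQP1 was lower in every one. The phases did not overlap, in either direction, for 8.26% of all genes tested. The prolactin receptor gene PRLR rose by 0.67 on the log2 scale, from 104.3 ± 12.6 to 167 ± 7.72 TPM (limma FDR = 1.54e-05, errors here are SD of 6). KL, which encodes klotho, rose from 524 ± 14.9 to 649 ± 31.8 TPM (limma FDR = 0.00106), CLIC6, a chloride intracellular channel gene, from 1205 ± 37.4 to 1373 ± 60.3 TPM (limma FDR = 0.0174), and the transcription factor gene OTX2 from 93.6 ± 4.85 to 112 ± 4.38 TPM (limma FDR = 0.00273). AQP1, a marker of the same list, fell from 604 ± 41.3 to 472 ± 48.2 TPM (limma FDR = 0.00306), and SLC4A5 and CA12 fell as well. TTR, the most abundant gene, had 294113 ± 19844 and 303059 ± 9512 TPM and was not called (limma FDR = 0.913). FOLR1, KCNJ13, HTR2C, ENPP2 and KRT18 were not called either, and their phases overlapped.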
